A study of Mus musculus with 6 samples.

Results

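The genes described here are 9 transcripts grouped as LINE-1 and retroelement restriction factors. The group covers factors that restrict these elements or clear the nucleic acids they leave behind. L1td1 encodes an RNA-binding protein, and its place in the group does not mean that it restricts LINE-1. The 9 genes were taken by symbol (Mov10, Apobec3, Samhd1, Zc3hav1, L1td1, Trex1, Rnaseh2a, Rnaseh2b and Rnaseh2c) from a table of 57180 mouse genes. All 9 had enough counts to be among the 15714 genes tested. RNA was sequenced from mouse embryonic stem (ES) cells of strain C57BL/6 in 3 libraries of genotype Mpp8/Tasor dko (double knockout, dKO below) and 3 WT libraries. The labels name no drug, age, clone or passage, and nothing says that libraries of a genotype came from separate cultures, so p-values measure only the spread between these libraries, which may be technical. The comparison asks which transcripts differ between the dKO and WT libraries, which differed in more than the 2 targeted genes (see chromosome 14 below). Levels of LINE-1 elements themselves are not analysed here.

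MPP8 (gene Mphosph8) and TASOR belong to HUSH, the human silencing hub, a chromatin complex that represses LINE-1 and other retroelements through H3K9 methylation. A LINE-1 element that escapes chromatin silencing is transcribed, forms a ribonucleoprotein with its own ORF1 and ORF2 proteins, and is copied into DNA at a nick in the genome. The factors described here act after transcription. Some bind or destroy the RNA, some act on the nascent DNA or on the nucleotides it is built from, and some degrade DNA or RNA-DNA hybrids that could otherwise be sensed as foreign. In human patients, loss of TREX1, SAMHD1 or an RNase H2 subunit causes Aicardi-Goutieres syndrome, a disease with chronic interferon production.

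Both targeted genes were lower in dKO. Mphosph8 averaged 0.138 ± 0.081 CPM in dKO and 128 ± 16 CPM in WT (counts scaled to a common library total with TMM factors; SD, n = 3 each). Tasor averaged 9.85 ± 1.04 CPM in dKO and 162 ± 33.7 CPM in WT (SD, n = 3 each). Both genes lie on chromosome 14, where 370 of 525 tested genes (70.5%) were called lower in dKO and 32 (6.1%) higher. For the values below, the lower level of the 2 targeted genes and this wider chromosome 14 difference cannot be told apart as sources. Library totals ran from 18384774 to 24910498 counts. WT replicate 2 stood apart from the other libraries, with 2.29% of its counts from mitochondrial genes, against 1.34% to 1.63% in the other 5, and 3.01% from ribosomal protein genes, against 3.88% to 5.35%. ES markers were abundant, with the summed level of 6 genes at 1760 to 1979 CPM in dKO and 1420 to 1897 CPM in WT. Markers of blood cells, in which APOBEC3 and SAMHD1 are abundant, summed over 6 genes to 3.68 to 4.29 CPM in dKO and 3.79 to 4.94 CPM in WT. The defining blood genes Ptprc and Lyz2 stayed under 0.5 CPM in every library. Trophoblast markers moved with genotype, at 21.3 to 24.8 CPM in dKO and 222 to 330 CPM in WT summed over 4 genes. Most of that sum came from Krt8 and Krt18, at means of 162 and 96.9 CPM in WT. Another 4 markers, of primitive endoderm, summed to 1.68 to 2.22 CPM in dKO and 3.09 to 4.28 CPM in WT. Gata6 among them went the other way, with means of 0.793 CPM in dKO and 0.543 CPM in WT. Fibroblast markers, 6 genes, summed to 42.5 to 45.9 CPM in dKO and 27.5 to 38.4 CPM in WT. Col1a1 among them went the other way, with means of 13.8 CPM in dKO and 15.2 CPM in WT. The part of these other cell types in the results below was not tested.

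Of the 9 transcripts, Mov10 was higher in dKO, L1td1 and Rnaseh2b were lower, and 6 were not called. A call is an adjusted p under 0.05 in the quasi-likelihood test of edgeR, adjusted by the Benjamini-Hochberg method over all 15714 tested genes. Called members were thus 33.3% of 9, and 34.3% of all tested genes were called, 16.4% higher and 17.9% lower. The share of members called was close to that background. The median log2 fold change, dKO over WT, was -0.02 over the members and -0.02 over all tested genes. The median size of the log2 fold change was 0.29 over the members and 0.34 over all tested genes. In 4 of the 9 the libraries of the genotypes did not overlap in CPM, as in 49.2% of all tested genes.

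**Figure D1:**
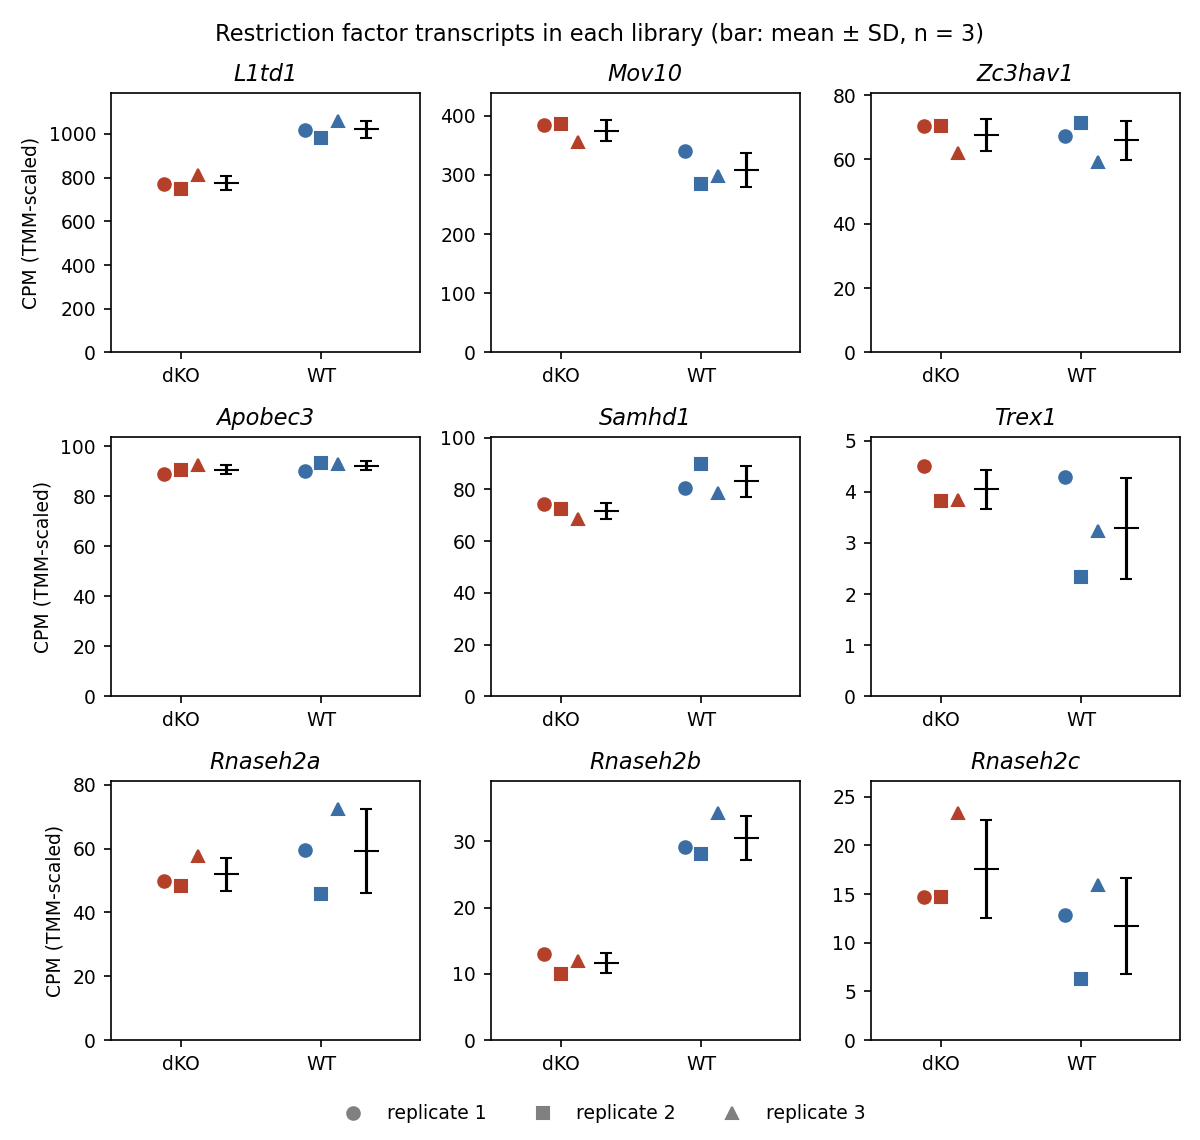
CPM of each of the 9 transcripts in each library, with dKO left of WT, 1 symbol per replicate number and a bar for the mean ± SD (n = 3); every vertical axis starts at 0. The genotypes part in L1td1, Mov10, Samhd1 and Rnaseh2b and overlap in the other 5.

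Levels between genes were compared per length, in the authors' TPM (transcripts scaled by length and to a common total). The order below depends on the length used. In counts per kilobase of the deposited gene length, Rnaseh2c stood above Rnaseh2a in dKO. L1td1 had the highest mean in both genotypes, at 645 TPM in dKO and 777 TPM in WT, and was higher than 98.9% of tested genes by its mean over the 6 libraries. Mov10 came next with 214 TPM in dKO and 160 TPM in WT. In dKO the order then ran Rnaseh2a (98.6 TPM), Apobec3 (81.6), Samhd1 (43.2), Rnaseh2c (33.7), Zc3hav1 (25.0), Rnaseh2b (14.2) and Trex1 (8.06), and only Samhd1 and Rnaseh2c overlapped among neighbours in that order. In WT it ran Rnaseh2a (104 TPM), Apobec3 (83.0), Samhd1 (46.5), Rnaseh2b (36.4), Zc3hav1 (23.1), Rnaseh2c (21.4) and Trex1 (6.31). The neighbours Rnaseh2a and Apobec3, Samhd1 and Rnaseh2b, and Zc3hav1 and Rnaseh2c overlapped there. Rnaseh2b and Rnaseh2c thus stood in opposite order in the 2 genotypes, with Rnaseh2b at 13.1 to 16.2 TPM and Rnaseh2c at 29.9 to 40.8 TPM in dKO, and Rnaseh2b at 34.1 to 39.4 TPM and Rnaseh2c at 13.6 to 26.8 TPM in WT.

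The first group binds LINE-1 RNA or its particles. L1td1 (ENSMUSG00000087166, chromosome 4) is itself descended from a LINE-1 ORF1 and encodes an RNA-binding protein of pluripotent cells. It had 772, 747 and 811 CPM in dKO replicates 1, 2 and 3, against 1018, 983 and 1061 CPM in WT replicates 1, 2 and 3. Every dKO library was below every WT library. L1td1 fell by 0.39 on the log2 scale (SE 0.0823, 95% interval -0.58 to -0.21, edgeR adjusted p = 0.0055), to 0.761 of the WT level. In bulk RNA, fewer cells with a transcript and less of it per cell cannot be told apart. It was still called lower when any 1 of the 6 libraries was left out, with adjusted p from 0.000443 to 0.0434, but not by limma on log2(TPM + 1), where the log2 value was -0.26 (adjusted p = 0.32, range over alternatives 0.000284 to 0.32).

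Mov10 (ENSMUSG00000002227, chromosome 3) encodes an RNA helicase that associates with LINE-1 particles and lowers retrotransposition in cultured human cells. It had 384, 386 and 355 CPM in dKO replicates 1, 2 and 3, against 340, 285 and 298 CPM in WT replicates 1, 2 and 3. The lowest dKO library stood just above the highest WT library. Mov10 rose by 0.29 on the log2 scale (SE 0.0933, 95% interval 0.08 to 0.50, edgeR adjusted p = 0.0409), a 1.22-fold difference. The call was lost without dKO replicate 1 (adjusted p = 0.161), dKO replicate 2 (0.15), dKO replicate 3 (0.0605) or WT replicate 3 (0.113), over a range of 0.01 to 0.193 across 14 alternatives. The log2 value was positive in all 14 of them.

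Zc3hav1 (ENSMUSG00000029826, chromosome 6) encodes ZAP, the zinc finger antiviral protein, which binds CpG-rich RNA and recruits decay factors. It had 70.3, 70.5 and 61.9 CPM in dKO replicates 1, 2 and 3, against 67.2, 71.3 and 59.3 CPM in WT replicates 1, 2 and 3. The genotypes overlapped throughout, and the third replicate was the lowest of each. The log2 fold change was 0.04 (SE 0.107, edgeR adjusted p = 0.829) with a 95% interval from -0.21 to 0.28, so a change beyond 1.21-fold higher or below 0.867 of WT lay outside the interval. The value turned to -0.04 without WT replicate 3.

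Upstream sequence in RefSeq (build GRCm38.p6) was matched by symbol for 8 of the 9 genes and covers the 250 bases before an annotated start. No window was matched for Rnaseh2b, so the sequence searches leave it out. The windows of L1td1 and Mov10 are printed because these called members moved in opposite directions. Each is shown 5′ to 3′ on the strand of its gene, without bases that GENCODE places in an exon, and capitals mark CG dinucleotides, the letters that DNA methylation acts on.
L1td1 (chr4:98726504-98726733, plus strand): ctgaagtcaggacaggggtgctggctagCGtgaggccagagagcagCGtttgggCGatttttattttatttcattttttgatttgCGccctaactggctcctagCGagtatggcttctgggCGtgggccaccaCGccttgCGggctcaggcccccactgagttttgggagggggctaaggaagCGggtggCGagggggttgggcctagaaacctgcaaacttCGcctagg
Mov10 (chr3:104818564-104818813, minus strand): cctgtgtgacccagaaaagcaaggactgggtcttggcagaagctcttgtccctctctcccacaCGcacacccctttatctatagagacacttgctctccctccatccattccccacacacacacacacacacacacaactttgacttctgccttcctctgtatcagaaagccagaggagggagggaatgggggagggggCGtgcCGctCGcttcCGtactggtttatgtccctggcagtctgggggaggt
The L1td1 stretch of 230 bases holds 11 CG, as does its whole window of 250, and the Mov10 stretch of 250 bases holds 5. A second Mov10 window, which lies wholly in annotated exon and is not printed, also holds 11, and the median over all 32851 windows of 250 bases is 6. DNA methylation was not measured.

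The second group acts on the DNA copy or its building blocks. Apobec3 (ENSMUSG00000009585, chromosome 15) encodes a cytidine deaminase that edits or blocks retroviral and retroelement DNA. It had 89.0, 90.4 and 92.6 CPM in dKO replicates 1, 2 and 3, against 90.2, 93.3 and 93.0 CPM in WT replicates 1, 2 and 3. The libraries of both genotypes lay within a narrow common band, with a coefficient of variation of 1.99% in dKO and 1.90% in WT. The log2 fold change was -0.02 (SE 0.0804, 95% interval -0.20 to 0.16, edgeR adjusted p = 0.849), and it was 0.04 when libraries were scaled by their totals alone. Cbx7, which overlaps Apobec3 on the opposite strand, fell by 0.36 on the log2 scale (SE 0.0877, edgeR adjusted p = 0.0116), and the sources used here do not say whether reads were counted by strand.

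Samhd1 (ENSMUSG00000027639, chromosome 2) encodes a hydrolase that breaks down dNTPs, the nucleotides from which reverse transcripts are built. It had 74.2, 72.4 and 68.4 CPM in dKO replicates 1, 2 and 3, against 80.7, 90.0 and 78.7 CPM in WT replicates 1, 2 and 3. No dKO library reached the lowest WT library, and WT replicate 2 was the highest. The log2 fold change was -0.21 (SE 0.0936, 95% interval -0.42 to -0.00274) with an unadjusted p = 0.0476 and an edgeR adjusted p = 0.108, so it was not called, nor was it in any of 14 alternatives. Without WT replicate 2 the value was -0.15 (adjusted p = 0.136).

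Several of these genes answer to interferon in other settings, so a match to the interferon-stimulated response element was looked for in the upstream windows. The letters searched were GAAA, any 2 bases and GAAA again, on either strand (TTTC, any 2 bases and TTTC). Such a match stood in 1 of the 11 windows of the 8 genes with sequence, that of Apobec3, and in 2.98% of all 32851 windows. This Apobec3 window lies before a RefSeq start but wholly within exons of Apobec3 and D730005E14Rik in GENCODE. The 30 bases around the match are printed with the match in capitals.
Apobec3 (chr15:79892258-79892287, GRCm38.p6, plus strand): catcagttagTTTCCCTTTCtctttgcgat
A match to GAS-like letters, TTCNNNGAA, which read the same on both strands, stood in 1 of the 11 windows, that of Samhd1, and in 7.02% of all windows. Matches describe letters only, and binding was not measured.

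The third group degrades DNA or RNA-DNA hybrids. Trex1 (ENSMUSG00000049734, chromosome 9) encodes a 3′ exonuclease that clears DNA from the cytosol. It was the least abundant member, with 93, 74 and 73 estimated counts in dKO replicates 1, 2 and 3, against 78, 57 and 59 in WT replicates 1, 2 and 3. In scaled units these were 4.50, 3.82 and 3.84 CPM in dKO, against 4.30, 2.33 and 3.24 CPM in WT, and the genotypes overlapped. The log2 fold change was 0.31 (SE 0.248, edgeR adjusted p = 0.365) with a wide 95% interval from -0.25 to 0.87, and it was 0.10 without WT replicate 2 and 0.56 without WT replicate 1 (adjusted p = 0.121). Trex1 shares its strand and part of its span with Atrip, so how reads divide between these genes is uncertain.

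RNase H2 is a complex of a catalytic subunit A with subunits B and C, which cuts the RNA strand of RNA-DNA hybrids and removes single ribonucleotides from DNA. Rnaseh2a (ENSMUSG00000052926, chromosome 8), the catalytic subunit gene, had 49.9, 48.2 and 57.8 CPM in dKO replicates 1, 2 and 3, against 59.6, 45.9 and 72.3 CPM in WT replicates 1, 2 and 3. The genotypes overlapped because WT replicate 2 was the lowest of all 6 libraries. The log2 fold change was -0.19 (SE 0.161, 95% interval -0.55 to 0.17, edgeR adjusted p = 0.399). Without WT replicate 2 it was -0.34 and called lower (adjusted p = 0.022, range over 14 alternatives 0.022 to 0.892), and without WT replicate 3 it was -0.03. Prdx2, which overlaps Rnaseh2a on the opposite strand, had a log2 value of -0.43 (edgeR adjusted p = 0.0935).

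Rnaseh2b (ENSMUSG00000021932, chromosome 14) encodes an accessory subunit, which in the human complex carries the PCNA-binding motif. It had 13.0, 9.97 and 11.9 CPM in dKO replicates 1, 2 and 3, against 29.2, 28.1 and 34.3 CPM in WT replicates 1, 2 and 3. The highest dKO library lay well below the lowest WT library. Rnaseh2b fell by 1.39 on the log2 scale (SE 0.139, 95% interval -1.71 to -1.08, edgeR adjusted p = 8.9e-05), to 0.381 of the WT level. It was called lower in all 13 alternatives in which it was tested, with log2 values from -1.48 to -1.29.

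Rnaseh2b lies on the chromosome where lower levels in dKO were common. The median log2 fold change of the 525 tested chromosome 14 genes was -0.94, and 19.4% of them had a value below that of Rnaseh2b. Of the 5 tested genes on each side, 8 of 10 were called lower and 2 were not called. Their log2 fold changes ran from -1.59 to -0.68 with a median of -1.04. The flanking genes included Ints6 (log2 -1.48, SE 0.144), an Integrator subunit gene, Kpna3 (log2 -1.23, SE 0.16), an importin gene, and Ctsb (log2 -1.14, SE 0.0954), the cathepsin B gene. The lower level of Rnaseh2b and the lower level of its chromosome cannot be told apart here. The targeted Mphosph8 and Tasor lie on the same chromosome.

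**Figure D2:**
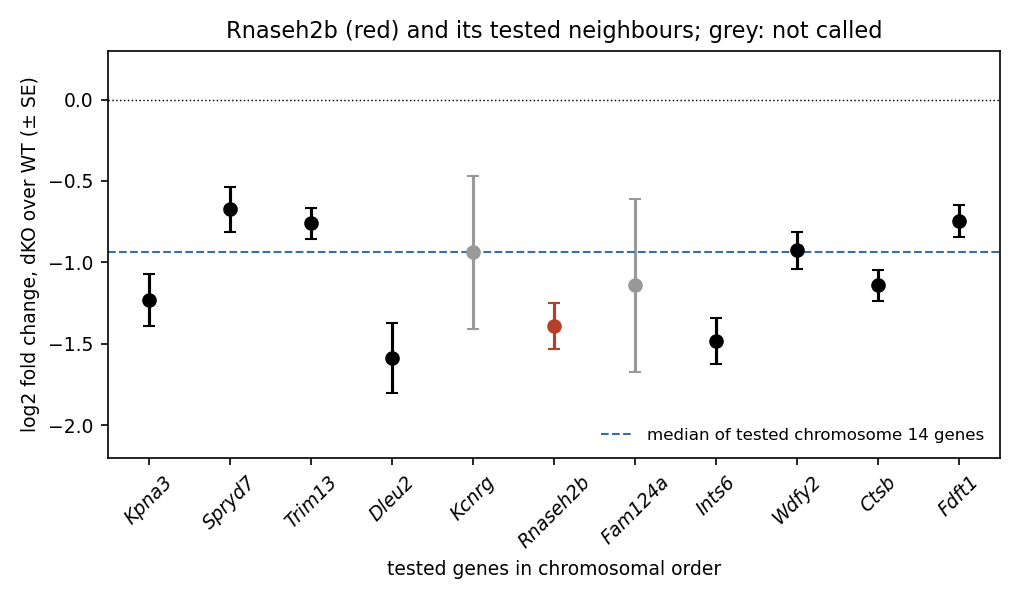
Log2 fold change, dKO over WT, with its SE, for Rnaseh2b (red) and the 5 tested genes on each side of it in chromosomal order; grey points were not called, and the dashed line is the median of tested chromosome 14 genes (-0.94). All 11 points lie below 0, and Rnaseh2b at -1.39 lies between the lowest neighbour at -1.59 and the highest at -0.68.

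Rnaseh2c (ENSMUSG00000024925, chromosome 19) encodes the third subunit, which pairs with the B subunit to hold the catalytic one. It had 14.7, 14.7 and 23.3 CPM in dKO replicates 1, 2 and 3, against 12.9, 6.28 and 16.0 CPM in WT replicates 1, 2 and 3. It was the most variable member, with a coefficient of variation of 28.4% in dKO and 42.2% in WT, and the genotypes overlapped. The log2 fold change was 0.59 (SE 0.34, 95% interval -0.20 to 1.38, edgeR adjusted p = 0.22), and without WT replicate 2 it was 0.28 (adjusted p = 0.328). The share of counts from ribosomal protein genes was 4.19%, 3.88% and 5.12% in dKO replicates 1, 2 and 3, against 4.23%, 3.01% and 5.35% in WT replicates 1, 2 and 3. Rnaseh2c and Rnaseh2a were likewise highest in the third replicate of each genotype and lowest in the second, by little between dKO replicates 1 and 2, and the part of this library difference in their values was not tested. Kat5 overlaps Rnaseh2c on the opposite strand and had a log2 fold change of 0.20 (edgeR adjusted p = 0.224), which was not called.

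**Figure D3:**
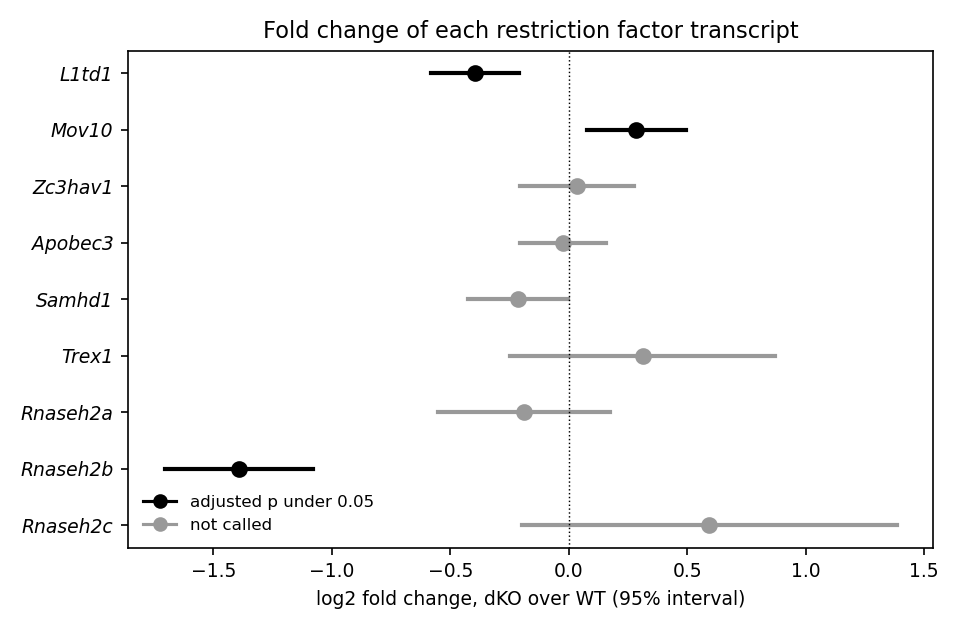
Log2 fold change, dKO over WT, of each of the 9 transcripts with its 95% interval; black marks an edgeR adjusted p under 0.05 and grey the members not called. The intervals of L1td1 and Rnaseh2b lie below 0 and that of Mov10 above it. The interval of Samhd1, which was not called, ends just below 0, and those of Trex1 and Rnaseh2c are the widest.

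As a share of the summed TPM of the 3 RNase H2 subunits, Rnaseh2b made up 10.5%, 9.94% and 8.58% in dKO replicates 1, 2 and 3, against 21.5%, 26.1% and 20.3% in WT replicates 1, 2 and 3. The mean difference was -13.0 percentage points, without overlap (exact permutation p = 0.1, two-sided, the smallest that 3 against 3 libraries allow). Rnaseh2c made up 23.0% ± 3.6 in dKO and 13.1% ± 3.57 in WT (SD, n = 3 each; exact permutation p = 0.1), also without overlap. The shares are parts of 1 sum, so a lower Rnaseh2b raises the other shares and the tests are not independent. In CPM, Rnaseh2c itself overlapped between genotypes and was not called (edgeR adjusted p = 0.22). Rnaseh2a made up 67.3% ± 2.65 in dKO and 64.3% ± 0.727 in WT (SD, n = 3 each; exact permutation p = 0.2). The summed TPM was 147 ± 12.7 in dKO and 162 ± 12.7 in WT (SD, n = 3 each; exact permutation p = 0.3). The share of each subunit depends on the length used. In counts per kilobase of the deposited gene length Rnaseh2a made up 36.6% in dKO and 35.9% in WT. Rnaseh2c made up 46.9% in dKO, above Rnaseh2a, and 26.5% in WT. The difference for Rnaseh2b was then -21.2 points and that for Rnaseh2c 20.4 points.

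**Figure D4:**
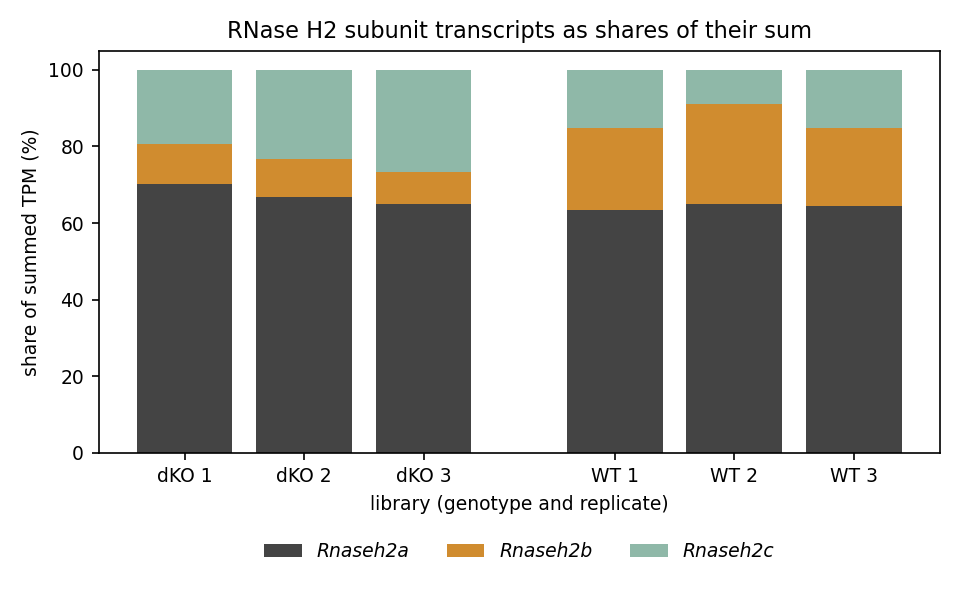
Each library's summed TPM of the 3 RNase H2 subunit transcripts, split into the share of each subunit (percent), with the dKO libraries on the left. Rnaseh2b takes 8.58% to 10.5% in dKO and 20.3% to 26.1% in WT, and Rnaseh2c takes the larger of these 2 shares only in dKO.

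Genes like Rnaseh2b, the called member with the smallest p, in pattern over the 6 libraries were sought among part of the tested genes. Those whose mean level lay under 1 on the log2 CPM scale were left out. Of the genes searched, the closest were Gng3 (Pearson r = 0.999), Sting1 (r = 0.998) and Smim10l2a (r = 0.998). These points hold both genotypes, so the difference between genotypes enters each r. Gng3 fell by 1.49, Sting1 by 1.02 and Smim10l2a by 1.12 on the log2 scale, and they lie on chromosomes 19, 18 and X.

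Genes that work with these factors were read from 6 lists. Among 10 genes of ZAP cofactors and RNA decay, 2 were higher, 1 was lower and 7 were not called, with a median log2 fold change of -0.04. The called share was 30%, beside 34.3% of all tested genes. The lower gene was Khnyn, the nuclease that cuts RNA bound by ZAP, at 34.6 CPM in dKO and 113 CPM in WT (log2 -1.70, SE 0.114, edgeR adjusted p = 7.92e-06), and it lies on chromosome 14. Dhx30, an RNA helicase gene, rose by 0.48 and Rnf135, a ubiquitin ligase gene, rose by 0.50 on the log2 scale. Trim25, the ligase that ZAP needs for full activity, had 292 CPM in dKO and 296 CPM in WT (log2 -0.02, SE 0.0774), chosen after its value was seen.

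Among 22 tested factors acting on LINE-1 RNA or reverse transcription, of 23 in the list, 6 were higher, 5 were lower and 11 were not called, which is 50% called beside 34.3% of all tested genes. Tex19.1, which lowers LINE-1 ORF1 protein in mouse ES cells, rose to 218 CPM in dKO, against 128 CPM in WT (log2 0.77, SE 0.0789, edgeR adjusted p = 0.000102). Its neighbour and paralog Tex19.2 rose by 1.52 (SE 0.21), and the split of reads between such copies is uncertain. Dgcr8, a subunit of the Microprocessor that can cut LINE-1 RNA, fell to 79.8 CPM in dKO, against 152 CPM in WT (log2 -0.93, SE 0.0814, edgeR adjusted p = 4.06e-05). Its partner Drosha, chosen after its value was seen, was not called (log2 0.11). Mov10l1, the germline paralog of Mov10, fell by 1.50 (SE 0.201). Ercc4 and Ercc1, whose proteins form a nuclease that limits LINE-1 insertion in cultured human cells, fell by 0.61 and 0.68. Without dKO replicate 1, 5 of these genes were called, and 7 without dKO replicate 2.

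**Figure D5:**
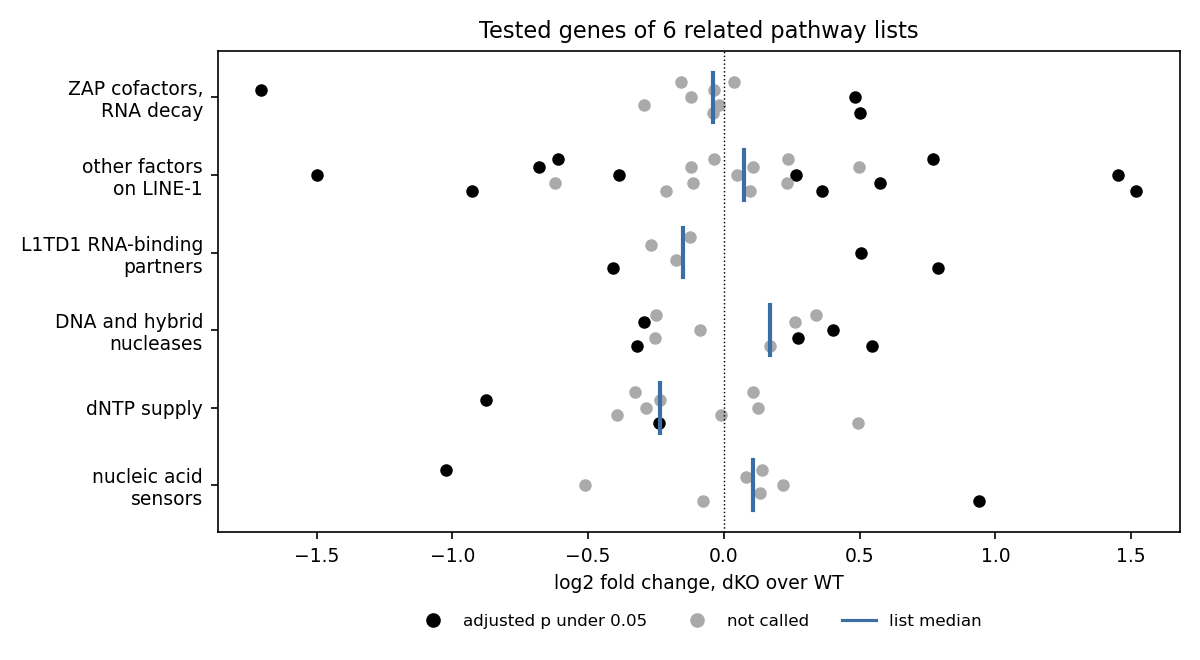
Log2 fold change, dKO over WT, of every tested gene in 6 lists of genes that work with the restriction factors; black points had an edgeR adjusted p under 0.05, grey points were not called, and blue lines are list medians. Each list except dNTP supply holds called genes on both sides of 0, and the medians run from -0.24 (dNTP supply) to 0.17 (nucleases).

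Of 6 RNA-binding proteins linked to L1TD1 in pluripotent cells, 2 were higher, 1 was lower and 3 were not called (median log2 -0.15), which is 50% called beside 34.3% of all tested genes. Lin28a, whose protein binds let-7 precursors and many mRNAs, fell by 0.41 (SE 0.0765), while Igf2bp2 and Igf2bp3, genes of mRNA-stabilising proteins, rose by 0.50 (SE 0.0868) and 0.79 (SE 0.11). Among 11 tested nuclease and hybrid-processing genes of 12, 3 were higher, 2 were lower and 6 were not called (median log2 0.17), which is 45.5% called beside 34.3% of all tested genes. Exo1 and Lig1 rose by 0.40 and 0.27, and Top1 and Pcna fell by 0.32 and 0.29. Rnaseh1, which also cuts RNA in hybrids and was chosen after its value was seen, had 27.8 CPM in dKO and 24.8 CPM in WT (log2 0.17, SE 0.177) and was not called. Only 2 genes of this list were called without dKO replicate 1, dKO replicate 2 or dKO replicate 3.

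In the dNTP supply list, where SAMHD1 is the opposing enzyme, 2 of 10 genes were lower and the other 8 were not called (median log2 -0.24), which is 20% called beside 34.3% of all tested genes. Rrm2b fell to 15.7 CPM in dKO, against 28.8 CPM in WT (log2 -0.88, SE 0.132, edgeR adjusted p = 0.001), and Rrm2 fell by 0.24 (SE 0.0781). Both encode small subunits of ribonucleotide reductase. This count was 5 without WT replicate 2, and 1 without dKO replicate 1, dKO replicate 2 or WT replicate 1. Among 8 tested sensors of 10 in the table, 1 was higher, 1 was lower and 6 were not called (median log2 0.11), which is 25% called beside 34.3% of all tested genes. Sting1, the adaptor of cytosolic DNA sensing, fell to 3.18 CPM in dKO, against 6.48 CPM in WT, and Tlr3, a receptor for double-stranded RNA, rose to 1.96 CPM in dKO, against 1.01 CPM in WT (log2 0.94, SE 0.319, edgeR adjusted p = 0.0478). The sensor count was 1 without dKO replicate 1, dKO replicate 2, WT replicate 1 or WT replicate 3.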

How the data were processed

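RNA of 6 mouse ES cell libraries was read from 1 deposited table. Per the submitters' processing notes, FastQC, HISAT2 2.1.0, RSEM, DESeq 1.26.0 and build GRCm39 were used, with no roles given. Per the file headers, the authors deposited expected counts (estimated reads per gene) and TPM per library, and the length of each gene in bases. The authors' deposited fold (ratio), log2 fold change and p-value columns were not used.

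Expected counts were rounded and tested with edgeR 4.0.16 in R 4.3.3 (filterByExpr, TMM, robust quasi-likelihood fit, genotype only). Standard errors (SE) are log2 fold changes over the root of the F statistic, without sign. Intervals use the fit's degrees of freedom. In simulated data the fit recovered 2% of 1.3-fold, 18% of 1.5-fold, 80% of 2-fold and 96% of 4-fold changes (50 genes each). Fewer genes were changed there than were called here, which makes the adjusted p cutoff stricter there. These shares may therefore not hold for the comparison itself. A gene that was not called may still differ by a small fold. DESeq2 1.42.0 and limma 3.58.1 served as alternatives. Named list genes are up to 6 called genes of each list by smallest p; 1 of them is not reported here. Members and lists were chosen with earlier results of these data known. Neighbours of Rnaseh2b and sequence searches were chosen after seeing the data. Chromosomes came from GENCODE M21 (GRCm38, order only), which matched 51884 of 57180 identifiers. Replicates differed beyond sampling noise (chi-square per degree of freedom 3.13 to 61.6). Plots used Python 3.11.15 and matplotlib 3.10.9.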

Additional observations from a re-analysis of the deposited data

How the results depend on the processing

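Rnaseh2b kept its direction and call in all 13 alternatives that tested it (adjusted p 7.53e-16 to 0.00118), and L1td1 in 13 of 14, all but limma on log2(TPM + 1) with -0.26. Mov10 lost its call without chromosomes 14 and Y (log2 0.27, edgeR adjusted p = 0.0541) and by limma on TPM (log2 0.41, adjusted p = 0.193). Its log2 value was 0.23 to 0.37 when 1 library was left out. Apobec3 turned to 0.038 with library totals (-0.033 to -0.0086 without 1 library), and Zc3hav1 ran from -0.044 to 0.107 and Rnaseh2a from -0.343 to -0.031 without 1 library. The cause was not tested.

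The count of called genes was 2504 by limma on TPM and 3588 (without dKO replicate 1) to 6833 (without WT replicate 2) when 1 library was left out. Called members numbered 2 to 4 without 1 library (0 to 1 higher, 2 to 3 lower), and 1 without chromosomes 14 and Y or by limma on TPM. In both of these 0 were higher and 1 lower, which was L1td1 without chromosomes 14 and Y and Rnaseh2b by limma. In each, 1 was higher at an unadjusted p under 0.05, but not the same gene. It was Mov10 without chromosomes 14 and Y (edgeR unadjusted p = 0.0181) and Rnaseh2c by limma (unadjusted p = 0.0302). Mov10 had an unadjusted p = 0.0608 by limma. By DESeq2 1 was called higher. Without chromosomes 14 and Y, Rnaseh2b has no value. Of the lists, limma on TPM called 3 of the other LINE-1 factors, 1 of the L1TD1 partners, 0 nucleases (2 at an unadjusted p under 0.05; 5 by DESeq2), 0 dNTP genes (5 unadjusted; 2 by DESeq2) and 1 sensor. Library totals gave 3 nucleases and 1 dNTP gene, and DESeq2 size factors 1 dNTP gene. The sensor count was 1 by DESeq2, without a low-count filter and without chromosomes 14 and Y. Without 1 library the counts ran from 5 to 11 (other factors), 2 to 7 (nucleases), 1 to 5 (dNTP) and 1 to 2 (sensors).

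The labels do not say whether replicate numbers pair the libraries. Same-numbered libraries deviated together with r = -0.08, 0.27 and 0.33 for replicates 1, 2 and 3. Replicates 2 and 3 of dKO were each most like the WT library of the same number. Replicate 1 of dKO was most like WT replicate 2 (0.21). With a replicate block 6794 genes were called, Rnaseh2c was called higher (0.64), so that 2 members were higher, and 8 nucleases and 6 dNTP genes were called. Trex1 had under 100 counts in each library.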
